A study of Danio rerio with 21 samples.

Results

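The transcripts followed were those of the neutrophil granule genes mpx (ENSDARG00000019521), npsn (ENSDARG00000010423) and lyz (ENSDARG00000057789). They are 3 of the 31953 genes of the count table and were chosen by name, with earlier results of these data known. mpx is named EPX in the reference gene-name table and mpx in the study's own table, and the latter name is used here. A separate row is named epx.

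Neutrophils are the first leucocytes to reach a wound, and they carry ready-made granules of enzymes that kill microbes and digest tissue. mpx encodes the zebrafish myeloid-specific peroxidase, which makes microbicidal oxidants and is widely used to mark zebrafish neutrophils. npsn encodes nephrosin, a secreted metalloprotease of the astacin family found in fish granulocytes. lyz encodes lysozyme C, which cleaves bacterial cell walls and in zebrafish larvae is found in neutrophils and in some macrophages. The granule messages are made mostly while neutrophils mature, and neutrophils are normally short-lived at a wound.

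The samples were nuclear RNA of biotagged nuclei from hearts of adult zebrafish of the line ox133, which carries mpeg1:BirA-Citrine, a biotin ligase driven from the macrophage gene mpeg1, together with bactin:Avi-Cerulean-Rangap, a tagged nuclear envelope protein made in every cell. All groups carried both transgenes, the fish were 4 to 12 months old, and each sample came from 1 heart. Sham fish had the ventricle exposed without injury, cryoinjured fish had it touched with a probe frozen in liquid nitrogen, and resected fish lost the ventricular apex. The 1 day post-injury (dpi) libraries came from 3 sham, 2 cryoinjured and 3 resected hearts, those of 5 dpi from 2 hearts of each kind, and those of 14 dpi from 4 sham and 3 cryoinjured hearts in 2 rounds of the experiment. The 3 cryoinjury libraries and 1 sham at 14 dpi belonged to round 2. Whether hearts within a group came from separate operations is not stated, so p-values measure the spread between these samples.

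Library totals ranged from 10577395 to 61141100 counts. The 1 dpi shams were deeper than the 1 dpi resection libraries, with 28394646 to 61141100 against 16213475 to 17851176 counts, but held fewer detected genes, 12608 to 14075 against 20122 to 21742. The cryoinjury libraries of that day held 14322 to 17352. The labelled cell type was checked by its markers. The main MPEG1 row (ENSDARG00000055290) ranged from 0 to 30.8 CPM (counts scaled to library size, after TMM normalisation) and was at 0 in cryoinjury replicate 1 at 5 dpi. The summed CPM of 7 cardiomyocyte genes ranged from 20750 to 188624, so heart muscle transcripts were present in every library. The 1 dpi resection libraries had TMM factors of 1.72 to 1.78, against 0.469 to 1.29 elsewhere, so levels in every library of that group depend on the scaling. So do levels in sham replicate 3 and cryoinjury replicate 3 of 1 dpi, with factors of 0.469 and 0.648. A count of 0 allows up to 3 counts, which was 0.0520 to 0.220 CPM depending on the library. Intervals and floors cover counting error only. In bulk libraries, fewer cells of a type and less RNA per cell cannot be told apart.

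mpx and npsn were present in all 5 injured libraries at 1 dpi and at or under 3 counts in all 3 shams of that day. Both were at or near 0 at 5 and 14 dpi. npsn reached several CPM after both injuries, whereas mpx did so after resection and was at most 0.398 CPM after cryoinjury. lyz was at 0 in the 1 dpi shams and highest that day in resection replicate 4, where mpx and npsn were highest too. At 5 and 14 dpi, however, lyz was high in single libraries in which mpx and npsn were not. More than 3 counts were found in 5 of 21 libraries for mpx, 6 for npsn and 7 for lyz. All 5 libraries with mpx also held npsn, while 4 of the 7 libraries with lyz held neither.

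**Figure D1:**
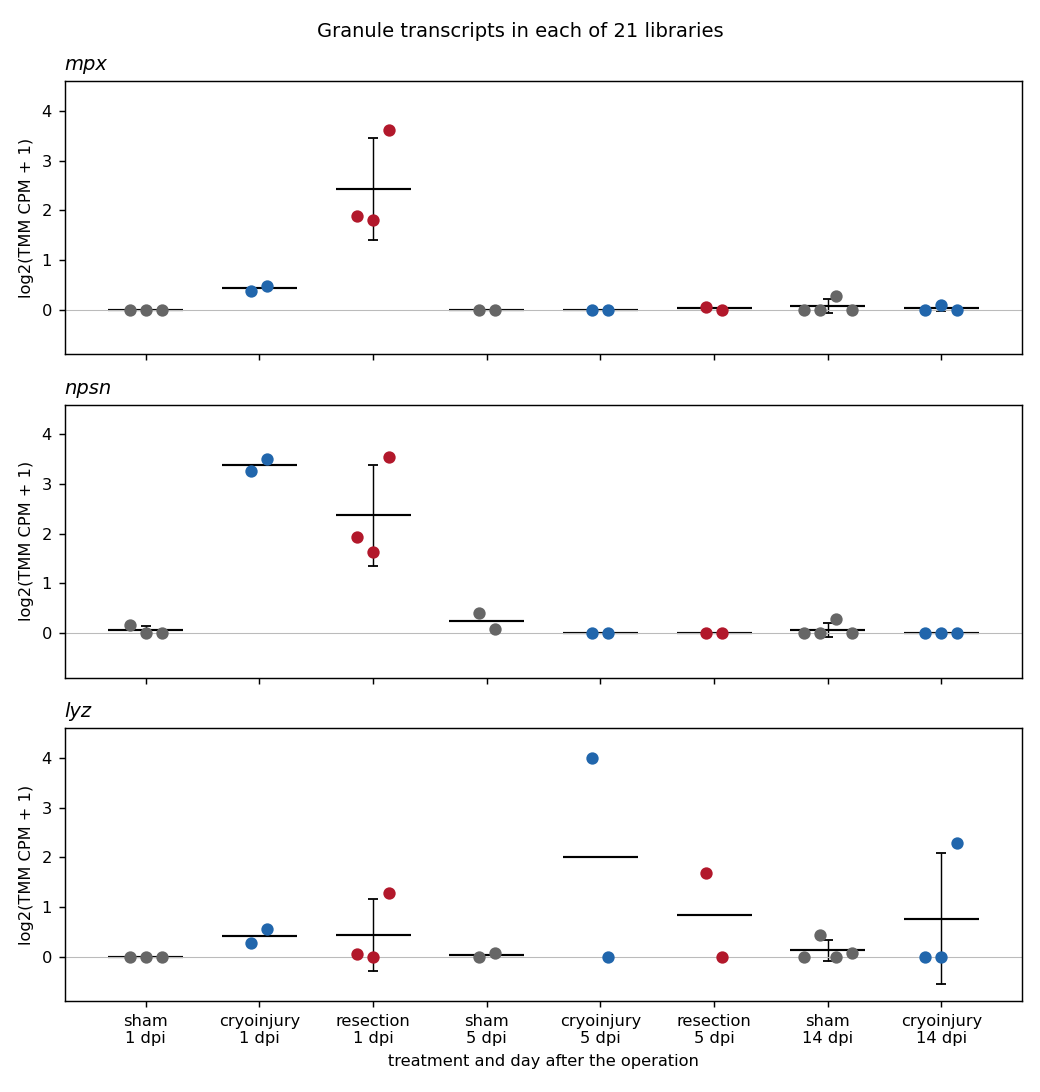
Each point is 1 library, plotted as log2(TMM CPM + 1) of mpx, npsn and lyz for the 8 groups by treatment (grey sham, blue cryoinjury, red resection) and day. Black lines are group means and bars are SD for groups of 3 or more libraries. mpx and npsn stand above 0 in the 1 dpi injured groups, whereas the highest lyz points are single libraries of cryoinjury at 5 dpi (14.9 CPM) and 14 dpi (3.88 CPM).

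mpx had 0 counts in each of the 3 sham libraries at 1 dpi, out of 126454851 counts in all. After resection it had 78, 76 and 341 counts in replicates 2, 3 and 4, which were 2.70, 2.47 and 11.3 CPM. After cryoinjury it had 7 and 12 counts in replicates 2 and 3, or 0.293 and 0.398 CPM. The groups did not overlap, with every resection library above both cryoinjury libraries and these above every sham, an order found in 1.50% of the 25366 genes with a count at 1 dpi (2.85% without TMM). The exact 95% interval was 10.1 to 12.6 CPM for resection replicate 4 and 1.95 to 3.10 CPM for replicate 3. The means were 5.49 ± 5.03 CPM after resection (SD, n = 3) and 0.345 ± 0.0738 CPM after cryoinjury (SD, n = 2).

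Against sham, pooled mpx counts were at least 185-fold higher after resection and at least 11.8-fold higher after cryoinjury, both against 3 counts over the sham group. Resection replicate 4 held 68.9% of the resection counts of mpx, and without it the bound was 86.6-fold. On CPM of library totals, without TMM, the resection bound was 409-fold. Fitted across all genes with edgeR's quasi-likelihood test, mpx was called higher after resection than in sham, with a log2 fold change of 10.55 (SE 2.36) and a Benjamini-Hochberg adjusted p of 0.0342. It was the only member called, of 2 that passed the filter on low counts, in a comparison that called 13.7% of all 15764 genes tested. The fitted value depends on the prior count because sham was at 0. The call was lost, with an adjusted p of 0.0518 to 0.0965, on leaving out any of the 6 libraries in turn, and it held with DESeq2's Wald test (1.98e-06), which called 23.3% of the genes it tested.

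After cryoinjury, mpx counts were too low for that filter and mpx was compared alone. The exact two-sided permutation test of log2(CPM + 1) gave p = 0.2, the smallest value that 2 against 3 libraries allow. edgeR called 0.146% of 13020 genes in this comparison, and 0 of the 3 members (npsn alone was tested, with an unadjusted p of 0.0410). DESeq2 called 1 member, npsn, and 6.14% of all genes.

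npsn had higher levels in every injured library than in every sham at 1 dpi, although edgeR did not call it. Sham replicate 1 held 3 counts and sham replicates 2 and 3 held 0. Cryoinjury replicates 2 and 3 held 205 and 314 counts, which were 8.59 and 10.4 CPM. Resection replicates 2, 3 and 4 held 81, 65 and 320 counts, or 2.81, 2.12 and 10.6 CPM. Resection replicate 4 lay with the cryoinjury libraries while the other resection libraries lay below them. The group means were 9.50 ± 1.28 CPM after cryoinjury (SD, n = 2) and 5.17 ± 4.71 CPM after resection (SD, n = 3).

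Pooled npsn counts were 322 times those of sham after cryoinjury (95% counting interval 110 to 1566) and 174 times after resection (59.2 to 847). The resection value was 82.1 without replicate 4, which held 68.7% of the counts, and 385 on CPM of library totals. In edgeR's fit the log2 fold change was 7.75 (SE 3.52, adjusted p = 0.721) for cryoinjury and 7.12 (SE 2.25, adjusted p = 0.0771) for resection. Neither passed the threshold of 0.05. DESeq2's Wald test called npsn in both comparisons, with adjusted p of 0.0144 and 0.000243, beside the 6.14% and 23.3% of all genes that it called there.

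A gene had to be above all 3 shams in all 5 injured libraries to show no overlap, which mpx and npsn did and lyz did not. Of the 25366 genes with a count at 1 dpi, 7.19% did so on CPM of library totals and 5.86% on TMM CPM. Genes with more than 3 counts in all 5 injured libraries and 3 or fewer in each sham were rarer, at 1.80% (457 genes), and these included mpx and npsn. When 3 counts or fewer were also asked of all 13 later libraries, 15 genes remained (0.0591%), with mpx among them. npsn was kept out by 7 counts in sham replicate 2 at 5 dpi. The other genes of the 15, looked up after their values were seen, included vgll4l, a transcriptional cofactor, cx44.2, a gap junction protein, and LAMC3 (1 of 2), a laminin chain.

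**Figure D2:**
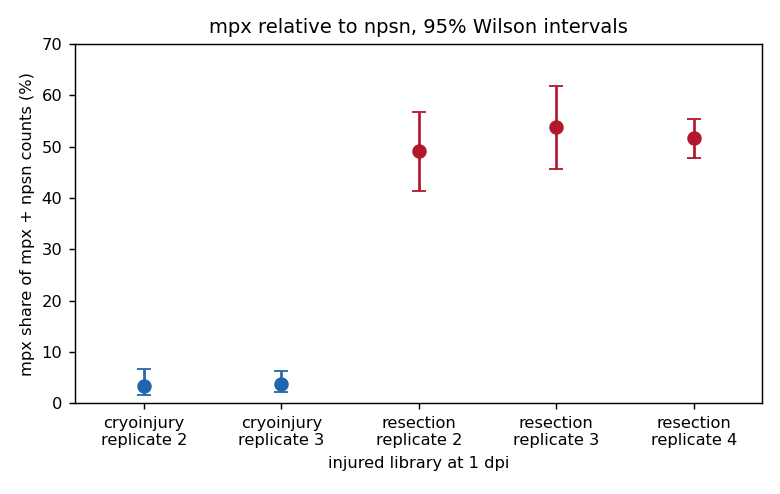
The mpx share of the summed mpx and npsn counts (percent, vertical axis) is shown for the 5 injured libraries at 1 dpi, with 95% Wilson intervals. The 2 cryoinjury libraries sit at 3.30% and 3.68% and the 3 resection libraries at 49.1% to 53.9%.

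The ratio of mpx to npsn does not depend on how a library is scaled, and it separated the injuries. mpx made up 49.1% of the summed mpx and npsn counts in resection replicate 2 (95% Wilson interval 41.4 to 56.8), 53.9% in replicate 3 (45.7 to 61.9) and 51.6% in replicate 4 (47.8 to 55.4). It made up 3.30% in cryoinjury replicate 2 (1.61 to 6.66) and 3.68% in replicate 3 (2.12 to 6.32). Within each injury the shares lay inside each other's intervals, although the counts themselves differed several-fold between the resection hearts. The pooled mpx to npsn count ratio was 1.06 after resection and 0.0366 after cryoinjury, a difference of 29.0-fold with a counting interval of 18.0 to 49.3. This ratio was chosen after the values were seen and was not tested across libraries.

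Set directly against each other at 1 dpi, resection had 15.7 times the pooled mpx of cryoinjury (counting interval 9.94 to 26.3), 7.35 times without resection replicate 4 and 38.1 times on CPM of library totals. The log2 fold change in edgeR was 3.96 (SE 1.47), and the adjusted p of 0.125 did not pass, whereas DESeq2's Wald test gave 0.00400. For npsn the log2 fold change was -0.88 (SE 1.07, adjusted p = 0.616 in edgeR), and -1.86 without resection replicate 4 or between -0.51 and -0.43 without one of the other resection libraries. Its direction turned with the scaling, since CPM of library totals without TMM averaged 9.15 after resection and 7.01 after cryoinjury. That turn rested on resection replicate 4, at 18.8 on this scale. Resection replicates 2 and 3, at 5 and 3.64, lay under both cryoinjury libraries, at 7.27 and 6.74. Under edgeR this comparison called 2.09% of 17338 genes and 0 of the 2 members tested, with mpx at an unadjusted p of 0.0291. DESeq2 called 1 member, mpx, and 23.7% of all genes.

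By 5 dpi both genes had nearly gone from the injured hearts. mpx held 1 and 0 counts in the resection libraries and 0 in both cryoinjury libraries. npsn held 0 counts in all 4 of these libraries, while shams of that day held 7 and 1 counts of npsn and 0 of mpx. The 7 counts, in a sham labelled as merged, were 0.320 CPM, above that library's floor of 0.137 CPM and far under the 1 dpi injured levels.

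From 1 to 5 dpi after resection, pooled mpx went from 495 counts to 1, a ratio of 231 (counting interval 41.3 to 9143), and npsn went from 466 counts to 0, at least 72.5-fold lower. Without resection replicate 4 at 1 dpi these became 108 and at least 34.2-fold, and on CPM of library totals 370 and at least 116-fold. The log2 fold change in edgeR, 1 against 5 dpi, was 7.63 (SE 1.68, adjusted p = 0.0581) for mpx and 10.08 (SE 2.09, adjusted p = 0.0562) for npsn. Neither passed, in a comparison that called 1.68% of 17978 genes and 0 of 3 members. Their unadjusted p were 0.00121 and 0.00113. DESeq2 called both, with 0.000181 and 3.96e-05, and 12.5% of all genes. Over 10 alternative fits the log2 fold change of npsn was 8.95 to 10.39.

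After cryoinjury, npsn went from 519 counts at 1 dpi to 0 at 5 dpi and 0 at 14 dpi, at least 122-fold (74.0 on CPM of library totals) and at least 278-fold lower. In edgeR, the log2 fold change was 10.71 (SE 4.37, adjusted p = 0.511) against 5 dpi, where 0.0229% of 13114 genes were called, and 11.07 (SE 2.73, adjusted p = 0.138) against 14 dpi, where 0.282% of 15251 were called. No member was called in either, with unadjusted p of 0.0290 and 0.00294 for npsn. DESeq2's Wald test called npsn in both, with adjusted p of 0.00408 and 2.75e-06, and 6.51% and 13.3% of all genes. mpx went from 19 counts to 0 at 5 dpi and 2 at 14 dpi and was too low for the filter in either comparison. Its exact permutation p was 0.333 and 0.2, in each case the smallest the design allows.

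At 14 dpi, mpx had 0, 2 and 0 counts in cryoinjury replicates 1, 2 and 3 and npsn had 0 in all of them. In the shams, mpx and npsn each had 3 counts in round 1 replicate 3 and 0 in the other libraries. All values were at or under 3 counts, so no fold is given. The rounds cannot be separated at this level, since round 2 held 1 sham, with 0 counts of both genes.

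Whether the effect of injury differed between days was tested in 1 fit of both days. For npsn the effect at 1 dpi exceeded that at 5 dpi by 12.28 on the log2 scale after resection (SE 4.15, adjusted p = 0.283) and by 13.03 after cryoinjury (SE 6.01, adjusted p = 0.851). It exceeded that at 14 dpi after cryoinjury by 11.37 (SE 4.13, adjusted p = 0.315). None passed in edgeR, which called 0%, 0.00598% and 0.0670% of 19166, 16724 and 17907 genes, with unadjusted p for npsn of 0.00972, 0.0372 and 0.0127. DESeq2 called npsn in the 5 dpi contrasts, with adjusted p of 0.00410 and 0.0344 and 7.89% and 2.18% of all genes called, but not in the 14 dpi contrast, where it called 6.88%. For mpx no finite estimate could be fitted in the 5 dpi contrasts, because shams of 1 and 5 dpi were at 0. In the 14 dpi contrast its counts were too low for the filter.

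**Figure D3:**
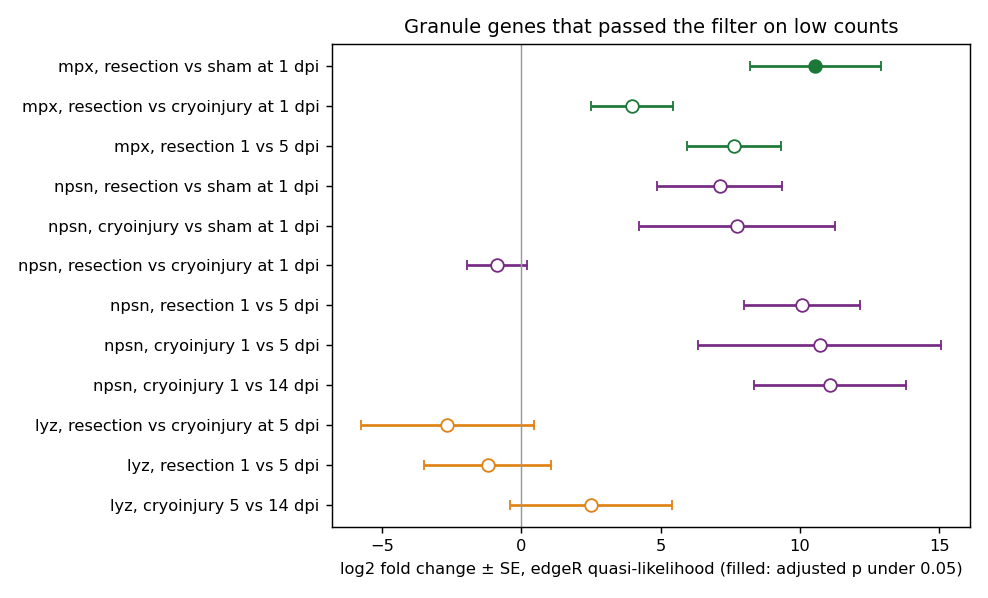
Log2 fold changes with SE from edgeR's quasi-likelihood fits are shown for every member and comparison of groups that passed the filter on low counts. Only mpx in resection against sham at 1 dpi, at 10.55, is filled, meaning an adjusted p under 0.05. The SE bars of the 3 lyz values cross 0.

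lyz had another course. At 1 dpi it had 0 counts in all 3 shams, 5 and 14 counts after cryoinjury (0.209 and 0.464 CPM) and 1, 0 and 43 counts in resection replicates 2, 3 and 4 (0.0347, 0 and 1.42 CPM). Resection replicate 4, the library with most mpx and npsn, held 97.7% of the lyz counts of its group, and the other resection libraries overlapped with sham. At 5 dpi cryoinjury replicate 1 held 219 counts (14.9 CPM, exact 95% interval 13.0 to 17.1) and replicate 4 held 0. Resection replicate 1 held 62 counts (2.19 CPM) and replicate 2 held 0, while the shams held 0 and 1. At 14 dpi cryoinjury replicate 3 held 130 counts (3.88 CPM) and the other cryoinjury libraries 0, against 0, 7, 0 and 1 in the shams.

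The highest lyz value of all 21 libraries thus came from a heart with 0 counts of both mpx and npsn. That library also had no count of the main MPEG1 row or of mpeg1.2, csf1ra and csf1rb. Of the other matched macrophage genes, cd74a was at 164, c1qc at 67.9, cd74b at 65.9 and marco at 61.3 CPM. c1qb was at 11.5, apoeb at 9.49, c1qa at 0.341 and mafbb at 0 CPM. The leucocyte gene coro1a was at 0.0683 CPM, the neutrophil gene cebp1 at 3.14 CPM and the skeletal muscle gene actc1b at 4147 CPM. These genes were picked after their values were seen, and the source of lyz in that library was not tested. In every injured group at 5 and 14 dpi exactly 1 library carried lyz, so no injured group of those days was separated from sham. At 1 dpi, both cryoinjury libraries lay above all 3 shams, but the share of all genes that did so was not counted. Pooled lyz counts there were at least 11.8-fold higher, against 3 counts over the sham group. The exact permutation test of log2(CPM + 1) gave p = 0.2, the smallest value the design allows. lyz passed the filter in only 3 comparisons of groups. Its log2 fold change was -2.65 (SE 3.10) for resection against cryoinjury at 5 dpi, -1.21 (SE 2.27) for resection at 1 against 5 dpi and 2.5 (SE 2.91) for cryoinjury at 5 against 14 dpi. The adjusted p-values from edgeR were 1.00, 0.840 and 0.930. Each of these directions turned on leaving out the library that carried lyz, cryoinjury replicate 1 at 5 dpi (7.61 for the first, -8.17 for the last) or resection replicate 1 at 5 dpi (6.67 for the second).

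In several comparisons that involved 5 or 14 dpi, edgeR called no member and no other gene. edgeR called 0% of 15423 genes for resection and 0% of 14286 for cryoinjury against sham at 5 dpi, 0% of 14709 for resection against cryoinjury, 0% of 15020 for cryoinjury against sham at 14 dpi, 0% of 15542 for cryoinjury at 5 against 14 dpi and 0% of 13883 for sham at 1 against 14 dpi. At an unadjusted p under 0.05 there were 503, 517, 763, 859, 1018 and 2093 genes, and DESeq2's Wald test called 155, 280, 250, 178, 534 and 1908, or 1.07%, 2.03%, 1.64%, 1.13%, 3.35% and 12.4% of those it tested. None of these calls was a member.

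Ordered by mean level, mpx ran from resection at 1 dpi to cryoinjury at 1 dpi and then to the other 6 groups, which were at or under 3 counts in every library and cannot be ordered. For npsn, cryoinjury and resection at 1 dpi overlapped in their spread and were followed by sham at 5 dpi, 0.186 ± 0.190 CPM (SD, n = 2), and by 5 groups at or under 3 counts. For lyz the order was cryoinjury at 5 dpi (7.47 ± 10.6 CPM, n = 2), cryoinjury at 14 dpi (1.29 ± 2.24 CPM, n = 3), resection at 5 dpi (1.1 ± 1.55 CPM, n = 2), resection at 1 dpi (0.486 ± 0.812 CPM, n = 3) and cryoinjury at 1 dpi (0.337 ± 0.180 CPM, n = 2). All of these errors are SD, and no neighbours in the lyz order differed beyond their spread. The order of the groups was the same under 3 scalings for mpx and lyz, and for npsn the first and second groups changed places on CPM of library totals.

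Other neutrophil genes were read from a fixed list, of which 16 of 24 symbols matched a row. On TMM CPM, 5 of these 16 had every injured library above every sham at 1 dpi, against 5.86% of all genes. These were scpp8, mmp9, mmp13a, mmp25b and adam8a. The list was chosen with earlier results of these data known, and this share was not tested. In resection against sham at 1 dpi 14 were tested, 2 were called higher and none lower, in a comparison that called 11.3% of all genes higher, so the share called was near that of all genes. The median log2 fold change of the list was 1.09 against 0.26 for all genes tested, and this gap depended on the fit, with 1.05 against 0.13 under DESeq2's size factors, 1.24 against 0.97 under its Wald test and 1.32 against 1.28 with no filter. DESeq2's Wald test, which called 23.3% of all genes, called 5 of the list higher, scpp8, mmp9, mmp13a, mmp25b and il6r. Leaving out any of the 6 libraries ended edgeR's calls of both genes, and over all genes it left between 0 calls (without resection replicate 4) and 177 (without sham replicate 2), against 2154. The 2 were the metalloproteinases mmp9 and mmp25b. mmp9, a gelatinase that neutrophils and other cells release, had 0 CPM in all 3 shams and 7.24, 16 and 18.8 CPM after resection (log2 fold change 11.89, SE 2.06, adjusted p = 0.0316 in edgeR). It also had 46.9 and 8.91 CPM after cryoinjury, and unlike mpx it was present in both cryoinjury libraries at 5 dpi, at 9.01 and 4.45 CPM. mmp25b, a membrane-bound metalloproteinase found on human neutrophils, had 1.07, 0.716 and 2.05 CPM after resection and 0 in the shams, with an adjusted p of 0.0316 in edgeR, but it also reached 5.31 CPM in a 14 dpi sham.

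In cryoinjury against sham at 1 dpi, 0 of 11 list genes were called by edgeR, with 4 at an unadjusted p under 0.05 and a median of 2.14 against -0.15 for all genes. DESeq2, which called 6.14% of all genes there, called scpp8 and mmp9 higher. In resection against cryoinjury at 1 dpi, 1 of 15 was called, and it was lower, as were 325 of the 362 genes called there (1.87% of all genes were called lower). This was srgn, the proteoglycan core protein that holds enzymes in granules, with 303 and 382 CPM after cryoinjury against 84.0, 124 and 108 CPM after resection (log2 fold change -1.72, SE 0.31, adjusted p = 0.0409 in edgeR). The call was lost without any of the 3 resection libraries and kept without either cryoinjury library. The TMM factors behind the srgn CPM were 0.846 and 0.648 after cryoinjury and 1.72 to 1.78 after resection, so the gap is smaller without TMM. srgn was the most abundant of the list and present in every library, with 72.6 to 196 CPM in the 1 dpi shams, so it was not restricted to the libraries with mpx. In the other 9 comparisons of groups edgeR called none of the list, of 7 to 15 genes tested, with 0 to 6 at an unadjusted p under 0.05. DESeq2 called 0 to 4, the largest number being in resection at 1 against 5 dpi (cebp1, scpp8, mmp9 and adam8a) and in cryoinjury at 1 against 14 dpi (illr4, scpp8, ltb4r and adam8a).

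The other 4 list genes with the highest medians were nccrp1, adam8a, cpa5 and alox5ap. adam8a, a membrane protease of myeloid cells, had 6.35, 8.92 and 0.116 CPM in the 1 dpi shams, 115 and 77.2 CPM after cryoinjury and 34, 16.8 and 40.2 CPM after resection. Both cryoinjury libraries were above the resection libraries on TMM CPM, but not on CPM of library totals, and neither tool called adam8a between the injuries. It was still at 28.7 and 73.1 CPM after cryoinjury at 5 dpi, where npsn was at 0. nccrp1 was detected in every library. alox5ap, needed to make leukotrienes, was at 0.461 and 30.8 CPM in the 1 dpi cryoinjury libraries. cpa5, a carboxypeptidase that marks mast cells in zebrafish, was at 73.9 CPM in 1 of these libraries and 2.75 CPM in the other.

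Some neutrophil genes were present where mpx and npsn were not, and others were absent there too. Of the 16 list genes, 8 had more than 3 counts in sham replicate 2 at 1 dpi and 8 were at 0, among them scpp8, mmp9 and mmp25b. Sham replicate 2 at 1 dpi had 0 counts of mpx, npsn and lyz but held csf3r, the receptor for granulocyte colony-stimulating factor, at 7.22 CPM, illr4 at 21.4 CPM and ncf1, a cytosolic subunit of the oxidase that macrophages also make, at 28.7 CPM. These were the highest values of the 21 libraries for each of the 3 genes, which were picked out after their values were seen. cxcr1, a chemokine receptor of neutrophils, had more than 3 counts in 1 library, and was also picked after its values were seen. scpp8, likewise picked after its values were seen, had 14.1 and 34.9 CPM after cryoinjury and 2.11, 0.912 and 8.48 CPM after resection at 1 dpi. It was at most 0.0784 CPM in the shams of that day and at most 0.408 CPM later, with its high values in the libraries in which npsn was high.

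The phagocyte oxidase, which makes the superoxide from which peroxidase oxidants derive, is shared by neutrophils and macrophages. Of its subunit genes, 5 were read here, cyba, cybb, ncf1, ncf4 and rac2, and all were tested at 1 dpi. edgeR called 0 of these 5 in resection against sham and 0 in cryoinjury against sham, with 0 at an unadjusted p under 0.05 in either and 0 called by DESeq2. Their median log2 fold changes were 1.60 and 1.27, against 0.26 and -0.15 for all genes tested. cybb, the catalytic subunit, picked after its values were seen, had 2.86, 13.5 and 5.37 CPM in the 1 dpi shams, 47.8 and 25.7 CPM after cryoinjury and 15.9, 19.6 and 41.3 CPM after resection, with every injured library above every sham (adjusted p = 0.952 for cryoinjury and 0.253 for resection in edgeR). The other 4 genes overlapped with sham, and 5.86% of all genes did not on this scale. The summed level of the 5 genes was 24.9 to 92.6 CPM in the 1 dpi shams, 124 to 184 CPM after cryoinjury and 76.5 to 129 CPM after resection. At 5 dpi it was 58.2 to 107 CPM after cryoinjury, where mpx and npsn were at 0, against 3.88 to 5.63 CPM in the shams of that day. In that comparison edgeR called 0 of 4 oxidase genes tested, with 2 at an unadjusted p under 0.05. DESeq2, which called 2.03% of all genes there, called cybb and ncf1 higher.

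**Figure D4:**
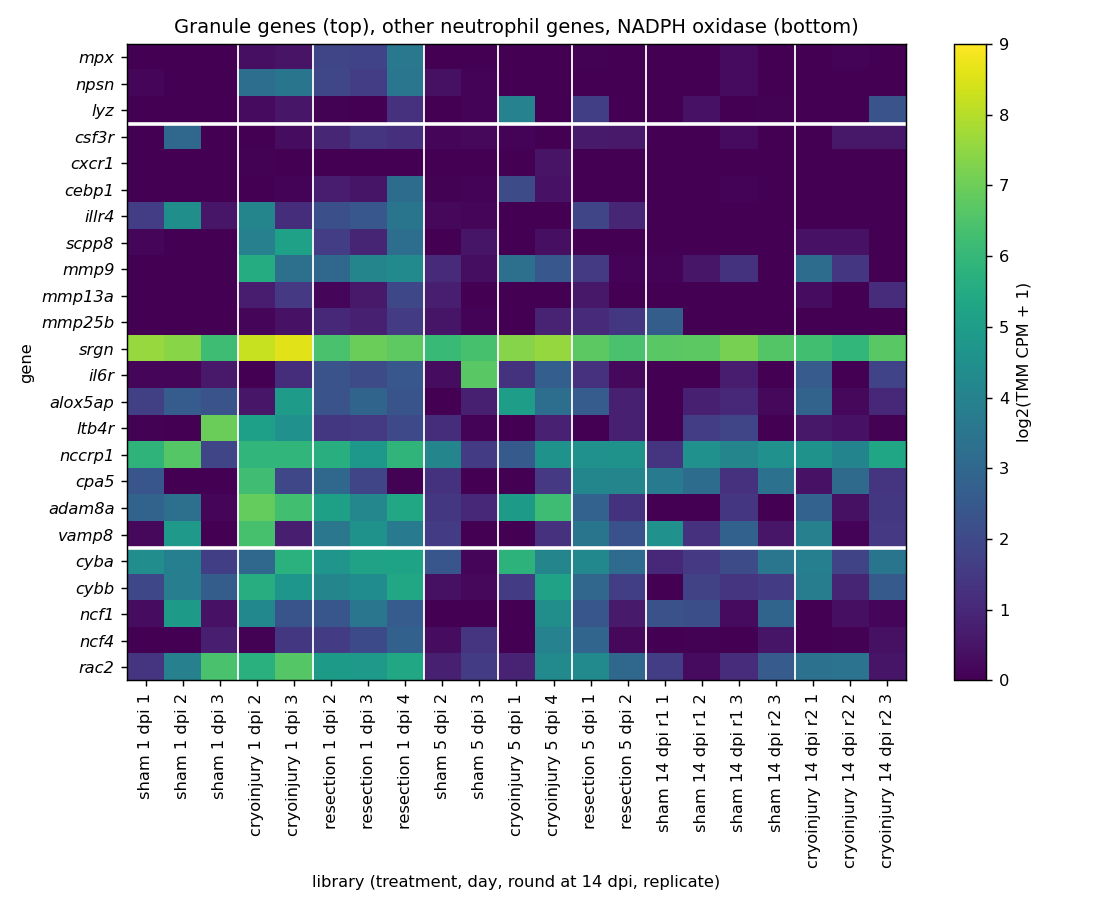
Colour gives log2(TMM CPM + 1) for the 3 granule genes (top), 16 other neutrophil genes (middle) and 5 oxidase genes (bottom) in the 21 libraries, which are ordered by day and treatment and split by white lines. npsn is lit in the 5 injured 1 dpi libraries. mpx is lit in the resection libraries of that day and is near the colour of 0 after cryoinjury, at most 0.398 CPM. srgn is lit in every library, and adam8a, cyba and cybb are also lit at 5 dpi.

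Of 13 neutrophil attractants and growth factors, 8 were tested in resection against sham at 1 dpi and edgeR called 0. There were 2 at an unadjusted p under 0.05, and the median was 0.05 with 4 of the 8 positive. DESeq2, which called 23.3% of all genes there, called cxcl8a, csf3a and il1b higher. In cryoinjury against sham 8 were tested and 0 called, with 1 at an unadjusted p under 0.05. DESeq2, which called 6.14% of all genes there, called cxcl12a lower. The chemokine cxcl8a, picked after its values were seen, had 7.83, 22.1 and 24.4 CPM after resection and 9.85 and 14.5 CPM after cryoinjury, against 0.667, 2.18 and 0 CPM in sham. Of the 13 genes, 11 overlapped between injured and sham libraries on TMM CPM and 2, cxcl8a and il1b, did not. Among all genes with a count at 1 dpi, 5.86% did not overlap. An example picked after its values were seen was cxcl18b, with 49.1 to 148 CPM in sham and 41.0 to 84.7 CPM after resection. cxcl12a, a chemokine that retains neutrophils in their niche, was called lower in the injury effect at 1 dpi than at 14 dpi after cryoinjury (log2 difference -7.77, SE 1.37, adjusted p = 0.0284 in edgeR), with 0.796 and 4.97 CPM in the 1 dpi cryoinjury libraries and 14.2, 303 and 127 CPM in their shams. At 14 dpi it was on the other side, with 95, 65.6 and 98.1 CPM after cryoinjury and 14.7 to 27.5 CPM in sham. This call was lost without sham replicate 2 or cryoinjury replicate 2 at 1 dpi, without sham replicate 1 of round 1 at 14 dpi, and without any of the 14 dpi cryoinjury libraries, with an adjusted p of up to 0.222. Of 9 matched myeloid transcription factors, all were tested in resection against sham and 2 were called higher, where 11.3% of all genes were. These were myb (0.866, 4.92 and 2.42 CPM against 0 in the shams, adjusted p = 0.0319) and gfi1aa (2.29, 1.43 and 1.95 CPM against 0, adjusted p = 0.0316), both regulators of blood progenitors. Both calls were lost without any of the 6 libraries. In cryoinjury against sham 0 of 7 were called by edgeR, 0 at an unadjusted p under 0.05 and 0 by DESeq2.

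The genes most like each member over the 21 libraries, by Pearson's r of log2(TMM CPM + 1) among 18136 genes, are given as a description. For mpx they were rhcgl1, of the ammonium transporter family (r = 0.985), si:dkeyp-86h10.3 (r = 0.977) and CABZ01032982.1 (r = 0.968). rhcgl1 had 75, 76 and 300 counts in the resection libraries in which mpx had 78, 76 and 341. For npsn they were scpp8 (r = 0.951), the desmosomal gene pkp1b (r = 0.948) and CABZ01058646.1 (r = 0.948). For lyz the first was col7a1l (r = 0.923), with 342 counts in cryoinjury replicate 1 at 5 dpi and 120 in cryoinjury replicate 3 at 14 dpi but 0 in resection replicate 1 at 5 dpi. All of these values rest on few libraries with counts. No coefficient between the members is given, since the libraries fall into the 5 with mpx and npsn and the others near 0.

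Markers of other cells differed between the groups at 1 dpi to unequal degrees, and their part in the levels of mpx and npsn was not tested. By edgeR, epidermal genes were called most often after resection and skeletal muscle genes after cryoinjury. Over all genes, 11.3% were called higher after resection and 0.146% were called after cryoinjury. Leaving out 1 library brought the 2154 resection calls over all genes down to between 0 and 177. Of the epidermal genes, edgeR called 6 of 8 higher after resection and 2 of 8 after cryoinjury. DESeq2 called 6 and 5, where it called 23.3% and 6.14% of all genes. Their median log2 fold changes were 9.51 and 8.71, against 0.26 and -0.15 for all genes tested. On TMM CPM, 6 of the 8 had every library of both injuries above every sham, against 5.86% of all genes. Their summed CPM was 1625 to 3395 in sham, 3490 to 5786 after cryoinjury and 2688 to 4268 after resection, with krt97 at 0 in sham. krt5, a keratin of basal epidermis, had 1.1, 0.0173 and 0.0578 CPM in sham, 2190 and 1002 CPM after cryoinjury and 1158, 2223 and 1682 CPM after resection.

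Of 7 skeletal muscle genes, edgeR called 3 higher after cryoinjury (median log2 fold change 9.05, against -0.15 for all genes), and DESeq2 called 6. Their summed CPM overlapped, with 6438 to 14957 in sham and 3601 to 23308 after cryoinjury, but the sham sums were mostly ckma. ckma had 6411, 8917 and 14937 CPM in sham and 8624 and 3487 CPM after cryoinjury. No other muscle gene of the list exceeded 25.5 CPM in sham. myhz2 and atp2a1l were at 0 in sham, and actc1b had 6907 CPM in cryoinjury replicate 2 and 49.3 CPM in replicate 3. After resection 1 of 6 was called higher, myhz2, and 1 lower, ckma, with a summed CPM of 1732 to 2483 that was again mostly ckma. Of 7 cardiomyocyte genes, 3 were called lower after resection (median -2.10), with a summed CPM of 20750 to 29125 against 76730 to 188624 in sham and 52950 to 73037 after cryoinjury. Over all genes, 374 of the 15764 tested were called lower after resection. Of 4 erythrocyte genes, alas2, an enzyme of haem synthesis, was called higher after resection, with 275, 487 and 136 CPM against 27.3, 68.3 and 9.24 CPM in sham.

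On TMM CPM, 6 of 6 leucocyte genes and 9 of 11 macrophage genes overlapped between injured and sham libraries at 1 dpi. On CPM of library totals, 4 of the leucocyte genes and 3 of the macrophage genes did not. Over all genes, 5.86% did not overlap on TMM CPM and 7.19% on CPM of library totals. The summed CPM of 6 leucocyte genes was 62.0 to 374 in sham, 403 to 440 after cryoinjury and 226 to 305 after resection, and edgeR and DESeq2 called 0 of them in either injury, with 1 at an unadjusted edgeR p under 0.05 after cryoinjury and 0 after resection. That of 11 macrophage genes was 51.3 to 393, 251 to 417 and 411 to 619, with mafbb at 0 in all 3 groups and mpeg1.2 at 0 except after resection, where it was the 1 gene called by edgeR. DESeq2 called mpeg1.2 and marco higher after resection. After cryoinjury edgeR and DESeq2 called 0, with 0 at an unadjusted p under 0.05. The summed CPM of 3 mast cell and eosinophil genes was 0 to 5.26, 2.78 to 74.0 and 2.70 to 8.71, with none called by either tool and 0 at an unadjusted p under 0.05. epx was at 0 in both cryoinjury libraries and at 0 to 0.658 CPM after resection. That of 8 T and B cell genes was 0.0392 to 0.116, 0.126 to 0.398 and 1.49 to 4.17, with cd79b at 0 in all 3 groups and ighm called higher after resection.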

How the data were processed

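Nuclear RNA was read by the authors in pairs of 80 bases, aligned with STAR 2.4.2a (assembly danRer10) and summed per gene by featureCounts. The deposited values are raw counts. The word merged in some labels is not explained. Of 23 columns, 2 matched no sample and were not used, and 1 gene with missing values was left out. The authors' tables of their own comparisons, which hold fold changes and p-values, were used for gene names only.

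Each comparison was a fit of edgeR 4.0.16 (R 4.3.3) to its own groups, with filterByExpr, TMM factors and the quasi-likelihood F-test, with Benjamini-Hochberg adjustment over all genes tested and a threshold of 0.05. There were 12 comparisons of groups and 3 of effects between days. DESeq2 1.42.0, its size factors, other filters, 1 fit of 21 libraries, a replicate block, the round and each library left out were alternatives. Members outside the filter had an exact permutation test on log2(CPM + 1), with scipy 1.17.1. CPM used TMM factors over all libraries, and folds use counts pooled over a group. A fold against a group at 0 is a bound against 3 counts over that group. Likeness was computed among genes with at least 10 counts in at least 4 libraries. Named list genes are those called in any comparison and the 5 neutrophil genes with the highest median CPM, and further ones are marked as picked after seeing values. Tests were checked on simulated data in which the changed genes were well counted, so genes at 0 in a whole group were not covered. The members and lists were chosen with earlier results of these data known. No promoter or protein sequence was used here, and 1 list gene is not reported here.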

Additional observations from a re-analysis of the deposited data

Results flagged for a closer look

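In the 4 sham libraries at 14 dpi, 1 library stood apart from the others, by Dixon's test at the 95% level, for 6 of the 13 genes examined. Chance flags about 1 in 20 groups, but this rate does not hold where the other 3 libraries are at 0, as for 5 of the 6 genes (all but lyz), since any count then stands apart. mpx and npsn both reached 0.212 CPM in round 1 replicate 3, which is 3 counts, the floor. lyz reached 0.348 CPM in round 1 replicate 2, which is 7 counts. adam8a reached 1.70 CPM in round 1 replicate 3. In round 1 replicate 1, mmp25b reached 5.31 CPM and myb 0.0928 CPM. The effect of cryoinjury on cxcl12a differed between 1 and 14 dpi, by -7.77 on the log2 scale (edgeR adjusted p = 0.0284). At 1 dpi both cryoinjury libraries were lower than all 3 shams, and at 14 dpi all 3 cryoinjury libraries, at 65.6 to 98.1 CPM, were higher than all 4 shams, at 14.7 to 27.5 CPM. The share of all genes with either pattern was not counted.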

How the results depend on the processing

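The alternatives changed calls more than directions. For the number of members called in resection against sham at 1 dpi, which was 1, DESeq2's Wald test gave 2, while each of 3 settings (every gene with a count, genes with 10 counts in 2 or more libraries, and all 21 libraries together) gave 0, and leaving out libraries gave 0 to 0. With the replicate block, on the libraries with shared numbers, it was 0 (log2 fold change of mpx 9.57, adjusted p = 0.427). Deviations of same-numbered libraries from their group means at 1 dpi correlated at -0.04 to 0.00. With so few libraries per group, this cannot show whether such libraries shared an operation. The block gave 0 in the other comparisons that allowed it. DESeq2's Wald test also gave 1 for cryoinjury against sham and for resection against cryoinjury at 1 dpi, 2 for resection at 1 against 5 dpi, 1 for cryoinjury at 1 against 5 and against 14 dpi, and 1 for each injury effect at 1 against 5 dpi, where edgeR gave 0. With no filter, resection at 1 against 5 dpi gave 2, in a fit that called 1147 of 24946 genes. Cryoinjury at 1 against 14 dpi then gave 1, in a fit that called 646 of 23064 genes. Leaving out resection replicate 2, 3 or 4 of 1 dpi gave 0 for resection at 1 against 5 dpi, in fits that called 85, 21 and 30 genes.

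mpx and npsn kept their direction in all alternatives fitted, except that npsn after resection against cryoinjury turned on CPM without TMM, through resection replicate 4. The log2 fold change of lyz reversed in 3 alternatives, each time without its 1 high library, so that leaving out libraries gave -9.98 to 7.61 for resection against cryoinjury at 5 dpi, -2.19 to 6.67 for resection at 1 against 5 dpi and -8.17 to 3.49 for cryoinjury at 5 against 14 dpi. The 6 calls of list genes kept their direction in 76 of 76 alternative fits and passed in 27. The alternatives for list genes and list medians, the effects between days and the folds without resection replicate 4 or on CPM of library totals were added after seeing the data. Round at 14 dpi changed no count. Depth limits values under 3 counts.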
